A study of Mus musculus with 32 samples.

Results

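The genes described here encode protein subunits of the mitochondrial ribosome, and they were taken as all genes whose symbol starts with Mrpl (large subunit) or Mrps (small subunit) followed by a digit. Of the 18194 genes with a probe set named for them alone, 76 met this rule, 47 named for the large and 29 for the small subunit, and all 76 passed the filter on dim probe sets that left 11228 genes. Mrpl30 and Mrpl53 were named only together with other genes and are not analysed here. The values come from 32 lymphomas of Eµ-myc mice, one array each, which carry a transgene in which Myc is placed under Eµ, an enhancer of the antibody heavy chain locus that acts in the B lineage. Every tumour carries that transgene, and the labels give no normal B cells, no age, sex or strain, and no treatment. They do not say which tumours were extracted as tissue and which as a suspension of cells, nor whether any came from the same mouse, so the tests below treat 32 arrays as independent. Tumours are called D1 to D32 as in their titles. Values are log2 expression values, each an amount of signal from a probe set that can be followed from tumour to tumour but not set against that of another gene.

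Mitochondria keep a ribosome of their own, which translates the few messages of the mitochondrial genome into membrane subunits of the respiratory chain and the ATP synthase. Its RNAs come from the mitochondrial genome, whereas all of its proteins come from nuclear genes, are made in the cytosol and are imported. Some of these proteins descend from those of bacterial ribosomes and others were added in the mitochondrial lineage. Of the 76 members, 43 were listed as bacterial homologues, 28 as mitochondria-specific and 5 were not classed (Mrpl55, Mrpl57, Mrpl58, Mrps28 and Mrps36). A few names mislead. The products of Mrps30 and Mrps18a sit in the mammalian large subunit, and Mrps36 is now regarded as a component of the 2-oxoglutarate dehydrogenase complex. Mrpl58 encodes the ribosome rescue factor ICT1. All of these genes were kept, because the names chose the members.

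The arrays had medians between 5.72 and 5.80 and 0 pairs held identical values. The B cell markers Cd79a, Cd79b, Pax5 and Ebf1 were above the filter in 32 of 32 tumours, and of the red cell genes measured Hba-a1 and Klf1 were above it in 0 tumours, Slc4a1 in 3, Alas2 in 4 and Epor in 32. In 11 tumours (D3, D4, D9, D12, D15, D16, D18, D20, D25, D29 and D30) the salivary gland gene Bpifa2 stood at 12.97 or more, against 5.19 or less in the other 21. In bulk tumours such as these, fewer cells of a type and less RNA per cell cannot be told apart.

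The members varied by modest amounts. Their median SD over the tumours was 0.24 on the log2 scale (range 0.13 to 0.55, n = 32), against 0.28 for all genes tested. It was 0.06 for 42 genes of the cytosolic ribosome and 0.17 for 77 genes of the respiratory chain and ATP synthase. An SD over 0.3 was found for 15 of 76 members (19.7%) and for 45.3% of all genes.

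Mrps12, whose bacterial counterpart lines the decoding centre of the small subunit, had the largest SD of the members (0.55). It was lowest at 9.16 in D18, had a median of 10.07 and reached 11.14 in D14 and 11.14 in D19, a 3.95-fold range. Mrps25, a mitochondria-specific small subunit gene, had an SD of 0.55, a lowest value of 7.51 in D30, a median of 9.37 and a highest value of 10.01 in D1. Its next lowest value was 7.94, in D18, so that 2 tumours made its lower end. The remaining genes at the top were Mrpl49 (SD 0.44, lowest 7.92 in D30, median 9.43, highest 9.99 in D29), Mrpl36 (SD 0.43), Mrpl24 (SD 0.38) and Mrps6 (SD 0.37). D30 was the lowest tumour for all of these except Mrps12. At the other end stood Mrpl33 (SD 0.13), Mrpl44 (SD 0.14), Mrps36 (SD 0.17), Mrpl15 (SD 0.18), Mrps33 (SD 0.18) and Mrpl55 (SD 0.18). The place of Mrpl15 depends on the probe set. Its further probe sets above the filter had SDs from 0.19 (mean 10.55) to 0.43 (mean 6.82). Mrpl33 ran from 9.51 in D14 through a median of 9.74 to 10.12 in D7. Mrpl44, which encodes a large subunit protein related to RNase III, ran from 10.02 in D25 through a median of 10.34 to 10.57 in D9.

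The members moved together over the tumours. The median Pearson r of their 2850 pairs was 0.42, and 92.1% of the pairs were positive, against a median of 0.00450 and 50.8% positive pairs over all genes tested. The subunits gave like values, with a median r of 0.41 within the large subunit, 0.40 within the small one and 0.43 between them. It was 0.42 within the bacterial homologues and 0.42 within the mitochondria-specific genes. The mean of the large subunit genes followed that of the small subunit genes with r = 0.96. Between members and respiratory chain genes the median r was 0.29, and between members and genes of the cytosolic ribosome it was 0.10. These correlations share the same arrays and their scaling, and they are given as a description.

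Mrps5, whose bacterial counterpart helps set the accuracy of decoding, followed the mean of the other members most closely (r = 0.93). Mrpl42 (r = 0.875), Mrps22 (r = 0.875), Mrpl19 (r = 0.87) and Mrpl38 (r = 0.86) came next. Mrps5 was lowest in D30 (8.23), had a median of 9.02 and was highest in D1 (9.46). The median r of a member to the mean of the others was 0.65, and 61 of 76 exceeded 0.5, against 15.4% of the genes outside the module.

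A few members did not follow the rest. Mrpl52, a mitochondria-specific large subunit gene, had r = -0.28 to the mean of the others, the one member below 0. It was lowest in D29 (10.38), had a median of 11.15 and was highest in D15 (11.67), a tumour in which 63 of 76 members were below their own mean. Mrpl44 (r = 0.08), Mrps18c (r = 0.14), Mrpl9 (r = 0.27) and Mrps9 (r = 0.27) were the next weakest. Mrpl44 has 3 further probe sets above the filter, which followed the one used with r = 0.77 (the brightest, mean 9.81), 0.38 and 0.19. Over the 62 further probe sets above the filter, in 35 members, the median r with the probe set used was 0.74, and 11 in 9 members were under 0.3 (Mrpl3, Mrpl15, Mrpl21, Mrpl35, Mrpl38, Mrpl44, Mrpl57, Mrps10 and Mrps15).

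The 3 vertebrate relatives of 1 bacterial small subunit protein, Mrps18a, Mrps18b and Mrps18c, behaved unequally. In the classes used here, only Mrps18c was listed as a bacterial homologue, and Mrps18a and Mrps18b were counted as mitochondria-specific. Mrps18a ran from 9.69 in D24 through a median of 10.73 to 11.17 in D20 (SD 0.35, r = 0.71 to the other members). Mrps18b ran from 8.74 in D25 through 9.49 to 9.91 in D10 (SD 0.26, r = 0.77). Mrps18c ran from 10.23 in D9 through 10.76 to 11.33 in D7 (SD 0.21, r = 0.14). The first pair sits on chromosome 17 and Mrps18c on chromosome 5. Mrps18a rose with the proliferation score described further on (0.22 ± 0.05 per SD) and with the respiratory chain score (0.22 ± 0.05), and Mrps18b with the respiratory chain score (0.17 ± 0.04). Mrps18c passed on neither (-0.04 ± 0.04 and 0.06 ± 0.04). No test of the difference between the 3 genes was made.

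**Figure D1:**
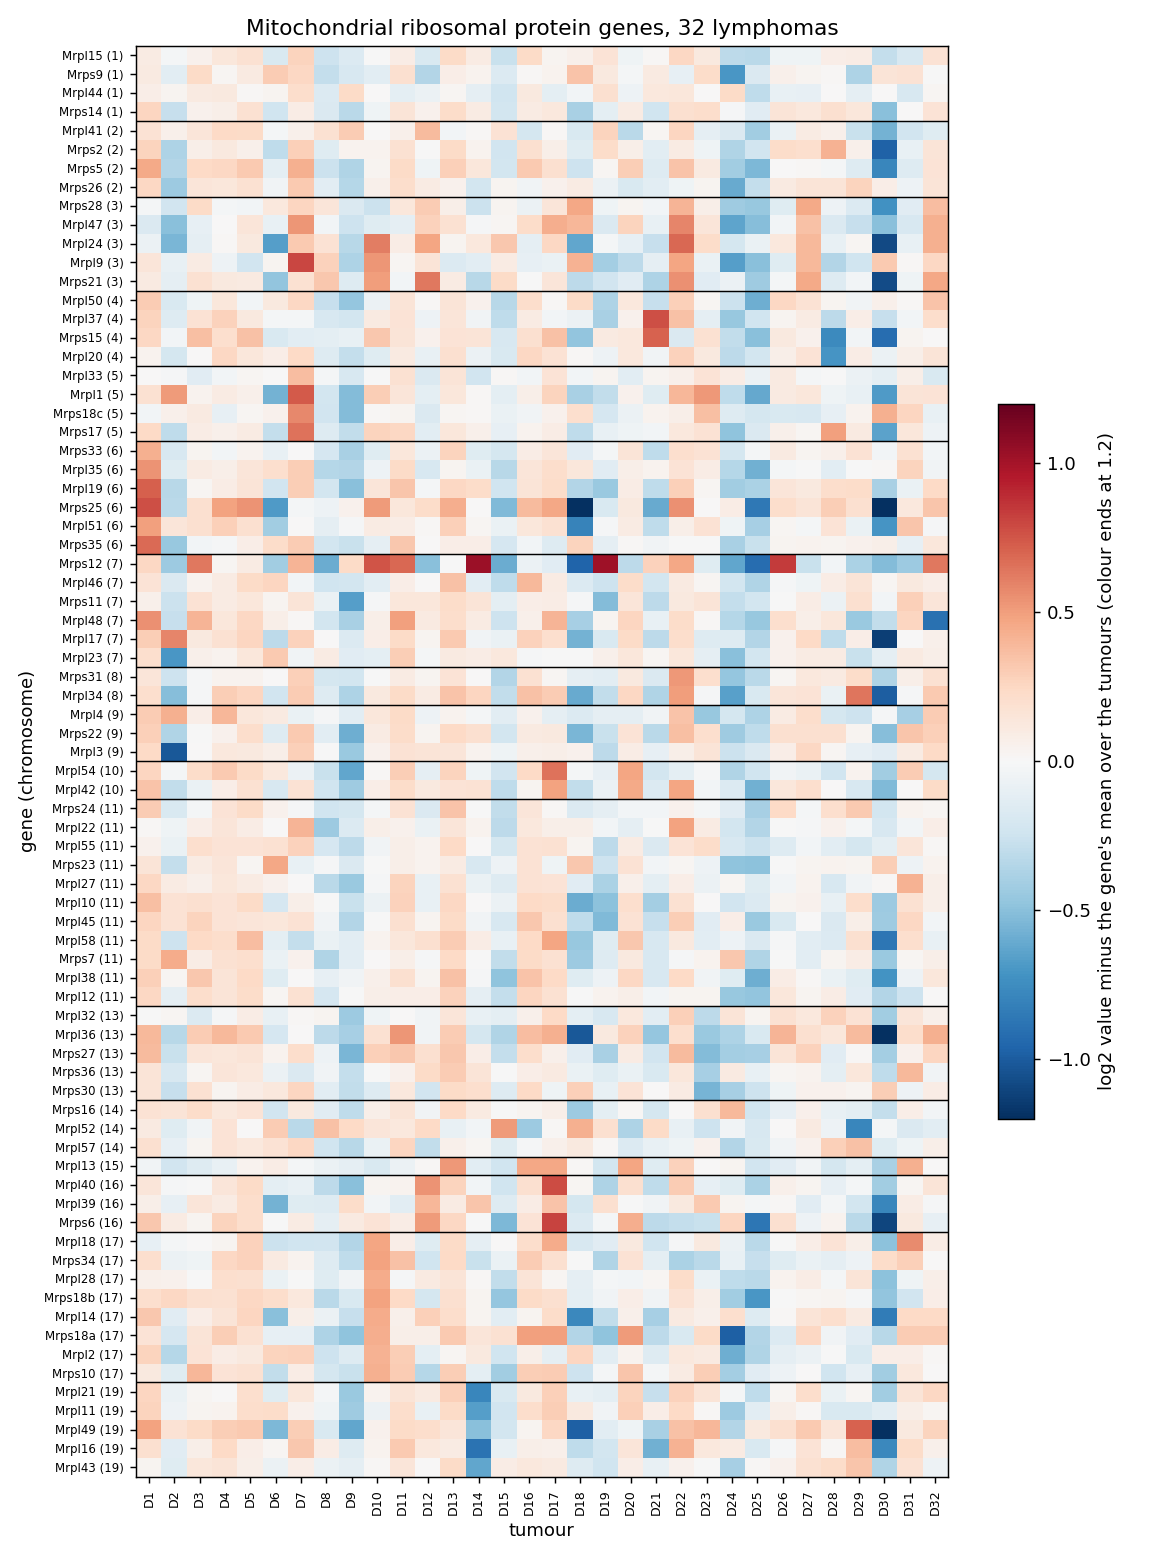
Each of the 76 members (rows, ordered by chromosome, which stands in parentheses) in each of the 32 tumours (columns), as the log2 value minus the gene's mean over the tumours, with red above and blue below. D30 and D25 are blue in most rows and D1 is red in most rows, while blocks of one chromosome stand out in single tumours, such as chromosome 19 in D14, chromosome 6 in D1 and chromosome 17 in D10.

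By tumour, the mean over the members, each taken relative to its own mean, ran from -0.40 in D30 to 0.22 in D1 on the log2 scale, which is 0.76-fold and 1.17-fold of the average. After D30 the lowest were D25 (-0.32) and D9 (-0.25), and after D1 the highest were D22 (0.19) and D13 (0.19). In D25, 73 of 76 members were below their mean, in D30 62 of 76, and in D1 69 of 76 were above it. D30 was the lowest tumour for 24 members, D9 for 11 and D25 for 10, and D1 was the highest for 11. D24 came next after D9 at the low end (-0.24). In D30, 9 members lay more than 1 log2 unit below their medians (Mrpl17, Mrpl24, Mrpl34, Mrpl36, Mrpl49, Mrps2, Mrps6, Mrps21 and Mrps25). The 3 lowest tumours were all among the 11 high in Bpifa2 (14.01 in D30, 13.89 in D25 and 14.26 in D9), whereas D24 had 3.67. D30 also had the lowest score of proliferation genes (-2.21), D25 the lowest respiratory chain score (-0.996) and D9 the widest gap between 3' and 5' probe sets of control transcripts (0.96), which grows as RNA degrades. The score of other cells, made from myeloid, stroma and T cell markers, was 1.32 in D30, 0.86 in D25, 0.26 in D9 and 1.70 in D24, the highest of all, against a median of -0.11. Within it, D30 had a myeloid score of 2.18 and a stroma score of 1.90, D25 a stroma score of 2.24, and D9 and D24 T cell scores of 1.46 and 3.08, and the B cell identity score of D24 was -1.86. The part of these measures in the low member values was not tested.

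**Figure D2:**
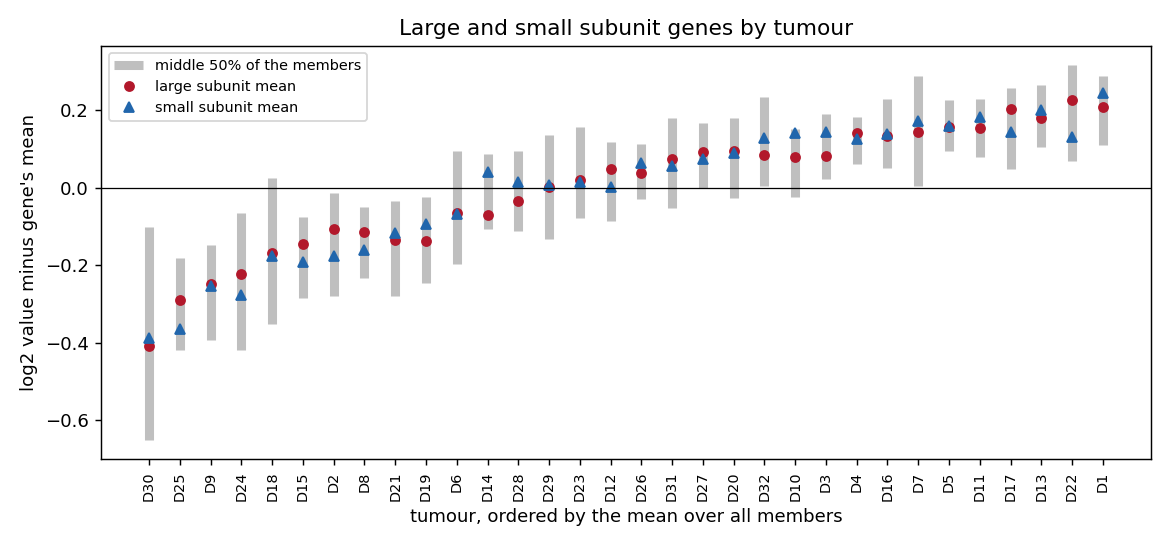
Mean log2 value of the large subunit genes (circles) and the small subunit genes (triangles), each gene relative to its own mean over the tumours, with grey bars for the middle 50% of the 76 members, by tumour. Circle and triangle lie close together in most tumours, and the means run from -0.40 in D30 to 0.22 in D1 over all members.

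Each gene was then fitted with limma on measures of the tumours, each scaled to an SD of 1, and a slope is the change in log2 value for 1 SD of the measure. A member counts as rising or falling where the p-value adjusted over all genes tested (Benjamini-Hochberg) was under 0.05. With the respiratory chain score, the mean standardised level of 77 nuclear genes of the respiratory chain and ATP synthase, 61 of 76 members rose (80.3%) and 0 fell, and at an unadjusted p under 0.05 also 0 fell. Of all 11151 genes tested, 14.3% rose and 7.09% fell. The median slope of the members was 0.14, against 0.02 over all genes. Rising members made up 38 of 47 large subunit and 23 of 29 small subunit genes, and 34 of 43 bacterial homologues and 23 of 28 mitochondria-specific genes. Of the genes of the cytosolic ribosome 4 of 42 rose.

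Mrps5 rose by 0.23 ± 0.03 per SD of the respiratory chain score (SE, n = 32, limma adjusted p = 7.99e-05). Mrpl46, mitochondria-specific, ran from 9.08 in D25 through 9.47 to 9.83 in D16, and rose by 0.15 ± 0.02 (limma adjusted p = 0.000138). Mrpl54 (0.21 ± 0.03), Mrpl12, which forms the flexible stalk that recruits translation factors (0.15 ± 0.02), and Mrps24 (0.14 ± 0.02) followed by moderated t. D25, the tumour with the lowest score, was the lowest for Mrpl46, Mrpl12 and Mrps24, and D13, with the highest score (0.92), was the highest for Mrpl12 and Mrps24. Left without a call were 15 members, among them Mrpl52 (-0.06 ± 0.05) and Mrps12 (0.18 ± 0.09). Without the 11 tumours high in Bpifa2, 21 of 76 members rose (27.6%), against 4.28% of all genes, and the median member slope was 0.11.

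With the proliferation score, made from 25 genes of DNA replication and mitosis, 46 of 76 members rose (60.5%) and 0 fell. Over all genes tested 18.9% rose and 11.2% fell. The members' median slope was 0.12, against 0.02 over all genes, and 72 of 76 had a positive slope. The genes of the cytosolic ribosome gave 4 rising and 1 falling of 42, and the respiratory chain genes 31 rising and 0 falling of 77. Proliferation and respiratory chain calls overlapped in 42 members, which is 91.3% of the first list and 68.9% of the second. Of all 76 members, 80.3% rose with the respiratory chain score. The overlap over all genes was not counted. Both scores come from the same tumours and are not independent, as 31 of the 77 respiratory chain genes rose with proliferation and 0 fell.

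Mrpl36, which encodes one of the smallest large subunit proteins, was lowest in D30 (8.43), had a median of 9.82 and was highest in D11 (10.19). It rose by 0.34 ± 0.05 per SD of the proliferation score (SE, n = 32, limma adjusted p = 8.33e-06). Mrps22, mitochondria-specific, ran from 9.24 in D9 through 9.92 to 10.18 in D22, and rose by 0.21 ± 0.03 (limma adjusted p = 3.73e-05). Mrpl58 (0.20 ± 0.03), Mrps2 (0.20 ± 0.03) and Mrpl34 (0.27 ± 0.05) followed. The steepest slope was that of Mrps25 (0.39 ± 0.07, limma adjusted p = 7.79e-05). D30 had both the lowest score and the lowest value of Mrpl36, Mrpl58, Mrps2, Mrpl34 and Mrps25. Without D30 36 members rose, a count given without the share of all genes. Without the 2 tumours farthest on the score 27 rose (35.5%, against 7.99% of all genes). Without the 11 tumours high in Bpifa2 9 rose (11.8%, against 6.98%), with a median member slope of 0.09. Those 9 were Mrpl3, Mrpl23, Mrpl34, Mrpl36, Mrps18a, Mrps22, Mrps24, Mrps26 and Mrps33. The SD of the score was 0.52 among the 21 tumours that remained and 0.64 among all 32.

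With the level of Myc itself, 17 of 76 members rose (22.4%) and 0 fell. Of all genes 10.4% rose and 9.67% fell. Of the genes of the cytosolic ribosome 0 of 42 passed in either direction (6 at an unadjusted p under 0.05), and of the respiratory chain genes 12 rose and 1 fell of 77. The probe set of Myc ran from 9.81 in D2 through a median of 11.34 to 12.30 in D7. Mrpl3, a large subunit gene whose bacterial counterpart reaches towards the peptidyl transferase centre, had the largest moderated t. It was lowest in D2 (9.17, with 9.74 next), had a median of 10.25 and was highest in D7 (10.47), and rose by 0.19 ± 0.03 per SD of Myc (SE, n = 32, limma adjusted p = 0.000118). D2 and D7 thus formed the ends of both genes. Of the 3 further probe sets of Mrpl3 above the filter, the brightest (mean 8.24) followed the one used with r = 0.93, and the others, with means of 5.97 and 5.84 near the filter, with r = 0.14 and 0.10. Mrps26 (0.14 ± 0.03), Mrpl47 (0.20 ± 0.04), Mrpl50 (0.15 ± 0.03) and Mrps35 (0.13 ± 0.03) came next.

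The number of Myc calls changed with the tumours and covariates used. Without the pair most distant from the median of Myc 5 members rose (Mrpl3, Mrpl9, Mrpl47, Mrpl50 and Mrps26), which is 6.58% against 2.71% of all genes. With a covariate for other cells (markers of T cells, myeloid cells and stroma) 2 rose (Mrpl3 and Mrpl50). Without D2 and D24, whose T cell scores of 2.43 and 3.08 were the highest, 5 rose, and without the 11 tumours high in Bpifa2 18 rose. Leaving out single tumours gave 9 without D9, 11 without D7, 11 without D24 and 26 without D30. From the covariate onwards these counts stand without the share of all genes. They do not show whether members changed more than other genes. On all 3 measures together, 9 members rose (Mrpl3, Mrpl19, Mrpl23, Mrpl42, Mrpl47, Mrps11, Mrps17, Mrps22 and Mrps31) and 10 rose on none (Mrpl4, Mrpl32, Mrpl33, Mrpl41, Mrpl44, Mrpl52, Mrps12, Mrps16, Mrps18c and Mrps34). The same overlaps were not counted over all genes. These 3 measures come from the same tumours and are not independent of each other. Of 77 respiratory chain genes, 31 rose and 0 fell with the proliferation score, and 12 rose and 1 fell with Myc.

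**Figure D3:**
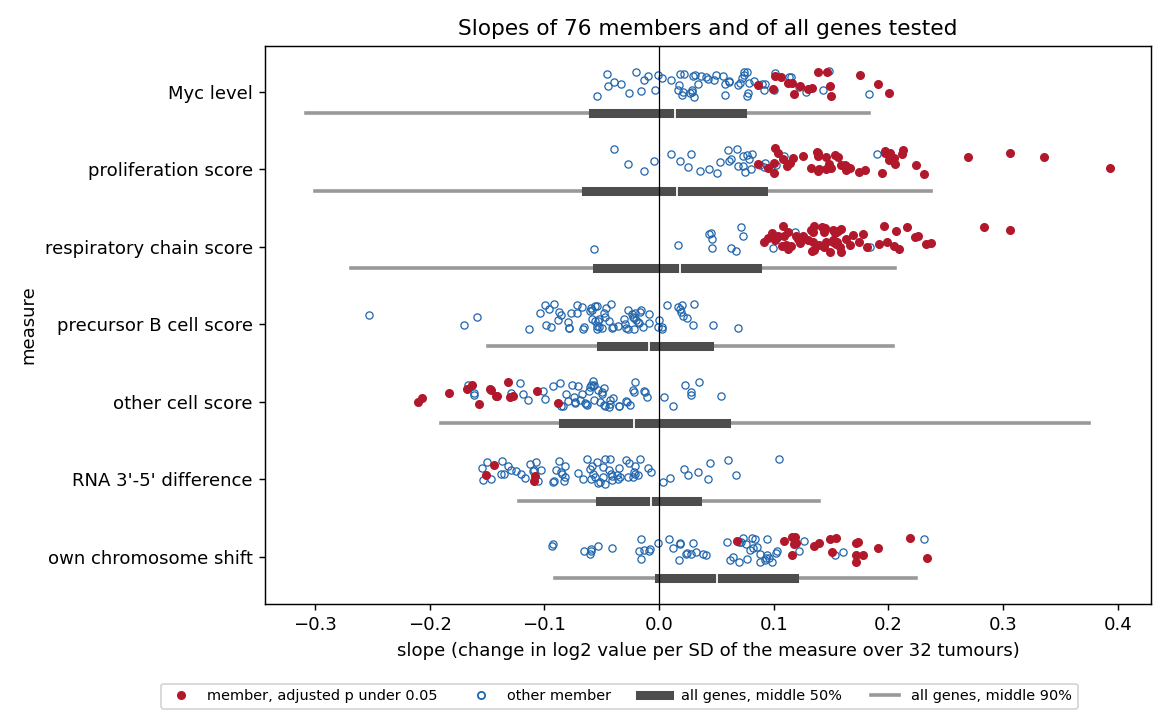
Slopes of the 76 members (circles, filled where the adjusted p was under 0.05) and of all genes tested (bars, middle 50% and 90%) on 7 measures of the tumours, as change in log2 value per SD of the measure. The members lie mostly right of 0 for the respiratory chain and proliferation scores, where 61 and 46 of 76 rose, and left of 0 for the score of other cells, where 15 fell.

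The remaining measures gave fewer calls. With the score of these other cells 15 members fell (19.7%) and 0 rose, beside 13.7% of all genes falling and 13.8% rising. Mrps17 (-0.16 ± 0.04), Mrps28 (-0.17 ± 0.04), Mrps31 (-0.13 ± 0.03), Mrps2 (-0.16 ± 0.04) and Mrps26 (-0.13 ± 0.03) led by moderated t. Without the 2 tumours farthest on that score 2 members fell (Mrpl3 and Mrps26), a count given without the share of all genes. With the gap between 3' and 5' probe sets Mrps11 (-0.15 ± 0.03), Mrpl32 (-0.11 ± 0.03), Mrpl10 (-0.14 ± 0.04) and Mrpl27 (-0.11 ± 0.03) fell and 0 rose, beside 0.837% of all genes falling and 0.321% rising. Of the 76 members 66 had a negative slope with that gap, and the median member slope was -0.057, against -0.007 over all genes. At an unadjusted p under 0.05 in limma, 26 members fell and 1 rose with it. Scaled by reference genes, Mrps11 fell and Mrpl44 rose instead, and without D9 0 passed the adjusted threshold. With the score of precursor B cell genes 0 of 76 members passed limma's adjusted threshold (10 at an unadjusted p under 0.05), beside 1.7% of all genes rising and 0.927% falling, and their slopes ran from -0.25 for Mrps12 to 0.07. Without D2 and D24, 6 members fell with that score (Mrpl1, Mrpl15, Mrpl19, Mrpl22, Mrps12 and Mrps26), or 7.89% against 4.62% of all genes.

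Genes that work with the mitochondrial ribosome were read from lists of named genes, not by a rule on symbols like the members. These lists were chosen with earlier results of these data known. Of its proteins with other names, 4 of 6 were tested, and Dap3, Ptcd3, Chchd1 and Gadd45gip1 rose with both the proliferation and the respiratory chain score, Ptcd3 by 0.28 ± 0.05 per SD of the first. Of 11 tested translation factors 7 rose with proliferation, led by the elongation factor Tufm (0.30 ± 0.04) and the recycling factor Mrrf (0.27 ± 0.05), 5 with the respiratory chain score and 5 with Myc, led by Guf1 (0.29 ± 0.06). Of 20 assembly factors 12, 10 and 6 rose with these measures, among them the GTPase gene Mtg1 (0.15 ± 0.03 with proliferation). Of 12 genes of mitochondrial transcription and RNA processing 9, 10 and 7 rose, among them Lrpprc, whose product stabilises mitochondrial messages (0.25 ± 0.04 with the respiratory chain score). None of these genes fell on the 3 measures. Of all genes tested, 18.9% rose with the proliferation score, 14.3% with the respiratory chain score and 10.4% with Myc.

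Among the genes outside the module, those most like its mean were Aunip (r = 0.93), the ATP synthase gene Atp5g1 (r = 0.92), Ruvbl2 (r = 0.92), Gemin5 (r = 0.92), Imp4 (r = 0.91), Exosc7 (r = 0.91), the mitochondrial chaperone gene Trap1 (r = 0.91), Drg2 (r = 0.90), Ifrd2 (r = 0.90) and Elp5 (r = 0.90), over 32 tumours. Imp4 and Exosc7 encode factors of cytosolic ribosome assembly and RNA processing. The median r of all genes outside the module to that mean was 0.08.

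The members lie on 17 chromosomes, which made it possible to follow them where the median of a chromosome's genes moved in a tumour. The shift of a chromosome is the median of its genes, each relative to its own mean, minus that of the other autosomes. A shift of at least 0.2 was found for 29 pairs of a chromosome and a tumour, of which 22 hold members. Of the 82 member values in these, 79 lay on the side of the shift, relative to the members on other chromosomes of the same tumour. DNA copy number was not measured, and the place of genes along a chromosome was not looked at.

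Chromosome 19 in D14 had the largest shift (-0.58), and its 5 members were lower by 0.71 on average than members elsewhere (0.61-fold). There Mrpl16 had 8.69, with the other tumours at 8.80 or more and a median of 9.65, and Mrpl21 had 8.44, with the others at 8.77 or more. Mrpl11 and Mrpl43 were also lowest in D14, and Mrpl49 was not. Chromosome 13 in D23 was down by 0.41 and its 5 members by 0.50, with Mrps30 (9.63) and Mrps36 (9.12) at their lowest. Chromosome 17 in D10 was up by 0.35, and its 8 members were higher by 0.36 to 0.42. Of these Mrpl2, Mrpl14, Mrpl28, Mrps10, Mrps18b and Mrps34 had their highest value there. Chromosome 5 in D7 was up by 0.36, with all 4 members (Mrpl1, Mrpl33, Mrps17 and Mrps18c) at their highest, Mrpl1 at 8.65 against 8.43 or less in the other tumours. Chromosome 6 in D1 was up by 0.24, with all 6 members (Mrpl19, Mrpl35, Mrpl51, Mrps25, Mrps33 and Mrps35) at their highest, Mrps35 at 10.13 against 9.77 or less. Several genes named above thus had their highest value in D7 (Mrpl33 and Mrps18c) or D1 (Mrps25). In these tumours the median of the gene's chromosome was up.

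Mrpl13, the one member on chromosome 15, had its 5 highest values in the 5 tumours with that chromosome up, at 11.03 in D13, 10.98 in D20, 10.97 in D16, 10.97 in D17 and 10.93 in D31, against a median of 10.45. Chromosome 3 was up in 7 tumours (D7, D8, D15, D18, D22, D27 and D32), and its 5 members were on that side in all of them except 2 of the 5 in D18. Over all chromosomes with an upward shift, 26 of 29 members (89.7%) had their highest value in a tumour so shifted, beside 39.7% of all genes there. For downward shifts it was 7 of 14 members for the lowest value, beside 27.6% of all genes. The members and their neighbours on a chromosome are part of the shift, so these shares describe how far each gene followed it.

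Fitted with limma on the shift of its own chromosome, 20 of 76 members rose (26.3%) and 0 fell, beside 18.3% of all genes rising and 0.705% falling. Mrpl13 rose by 0.19 ± 0.03 per SD of the shift (SE, n = 32, limma adjusted p = 1.19e-05), and Mrpl9 (0.22 ± 0.04), Mrps17 (0.17 ± 0.04), Mrpl34 (0.23 ± 0.05) and Mrpl40 (0.17 ± 0.04) came next. The SD of a shift before scaling ran from 0.016 for chromosome 11 to 0.151 for chromosome 3. A call can therefore rest on small movements of the median. Mrpl34 and Mrps31, both called, lie on chromosome 8, whose shift stayed between -0.054 in D18 and 0.049 in D11. Among the chromosomes shifted in 1 tumour, 4 of 4 members passed on chromosome 5, 4 of 5 on chromosome 19 and 2 of 4 on chromosome 4, and none on chromosomes 6, 13 and 17. Without the 2 tumours farthest on each shift 4 members rose (Mrpl9, Mrpl13, Mrpl34 and Mrps31) and 4 of those on chromosome 6 fell (Mrpl19, Mrpl35, Mrpl51 and Mrps25), beside 6.40% of all genes rising and 0.678% falling. At an unadjusted p under 0.05 in limma, 0 members went against the called direction on the Myc level, the proliferation score and the score of other cells, and 1 did on the probe set gap and 1 on the shift of its chromosome.

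**Figure D4:**
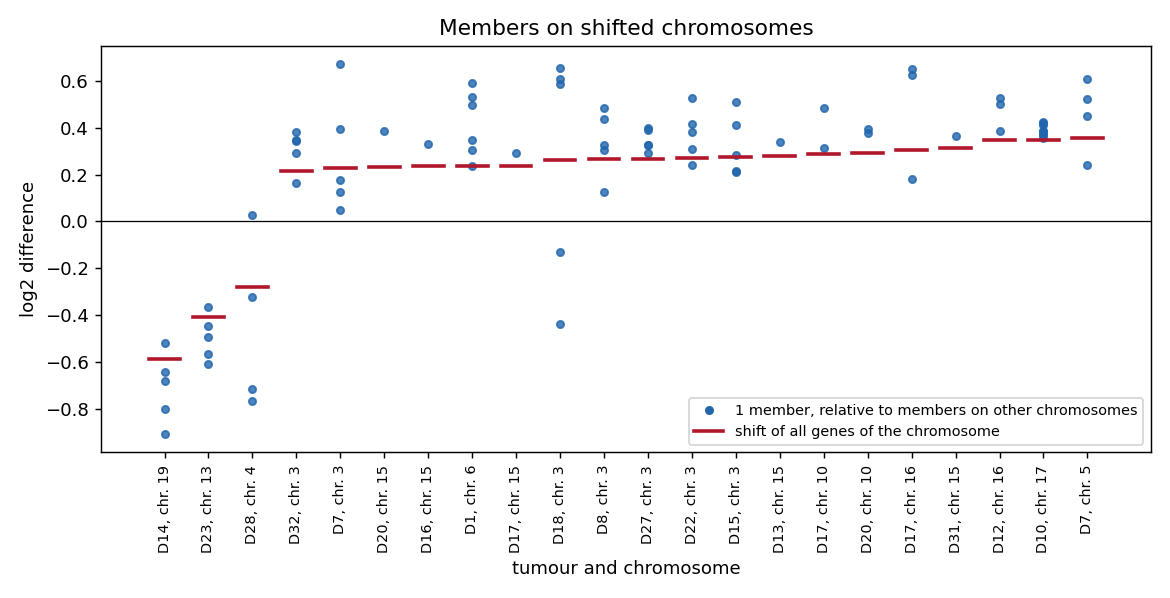
Members (points) in the 22 pairs of a tumour and a chromosome with a shift of at least 0.2 and at least 1 member, as log2 difference from the members on other chromosomes of the same tumour, with the shift of all genes of that chromosome as a line. Points lie on the side of the line in 79 of 82 cases, and the exceptions are 2 on chromosome 3 in D18 and 1 on chromosome 4 in D28.

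Several members share a start region with a gene read from the opposite strand. This was looked at after the data had been seen, over the 18 such pairs with annotated starts at most 500 bases apart (RefSeq, GRCm38.p6). The median r of the 18 pairs was 0.43, beside 0.29 over all 499 such pairs of tested genes, and 10 of the 18 (55.6%) passed a two-sided permutation test of Pearson's r above 0 adjusted over the 499 (100000 resamples). Of the 499 pairs 39.5% passed with r above 0 and 1.8% with r below 0. With Spearman's rho as well, 5 of the 18 member pairs passed on both, beside 160 of the 499. Mrps27 and Ptcd2, both genes of mitochondrial RNA or translation, had r = 0.70 (raw p = 3e-05, adjusted p = 0.000263) and rho = 0.67 (permutation p = 0.0001, adjusted p = 0.00113, n = 32), with r = 0.65 without the 2 far tumours. Mrpl46 and Mrps11, both members, start 42 bases apart and had r = 0.68 (raw p = 1e-05, the smallest the permutations can give, adjusted p = 0.000125) and rho = 0.64 (permutation p = 0.00014, adjusted p = 0.00143), with r = 0.70 without the 2 far tumours. Mrps12 and Sars2, the mitochondrial seryl-tRNA synthetase gene, had r = 0.61 (raw p = 0.00022, adjusted p = 0.00129) and rho = 0.64 (permutation p = 0.00014, adjusted p = 0.00143), with r = 0.59 without the 2 far tumours. Mrpl47 and Ndufb5 had r = 0.59, and 0.31 over the 25 tumours without a shift of their chromosome 3, whereas Mrps27 with Ptcd2 kept r = 0.66 without D23. At the low end Mrpl55 with 2610507I01Rik had r = 0.01 and Mrpl14 with Tmem63b 0.04.

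The stretches between the starts of the 3 closest-following pairs are shown, since each holds the start region that both genes share, in lower case and 5′ to 3′ on the strand of the gene named first, with capitals for any of the 5 motifs listed further on. They lie at chr13:99344679-99344785 (107 bases, 74.8% G or C), chr7:78783090-78783130 (41 bases, 73.2%) and chr7:28741822-28741967 (146 bases, 49.3%). The Mrps27 stretch has 1 ETS motif on its reverse strand and the others have none of the 5.
Mrps27 to Ptcd2 interval: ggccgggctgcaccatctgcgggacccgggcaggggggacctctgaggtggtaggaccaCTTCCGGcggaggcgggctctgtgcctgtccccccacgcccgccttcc
Mrpl46 to Mrps11 interval: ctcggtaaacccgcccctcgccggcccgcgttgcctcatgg
Mrps12 to Sars2 interval: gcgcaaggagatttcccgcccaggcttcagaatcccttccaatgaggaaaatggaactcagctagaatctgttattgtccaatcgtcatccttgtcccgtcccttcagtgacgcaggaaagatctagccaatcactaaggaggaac

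**Figure D5:**
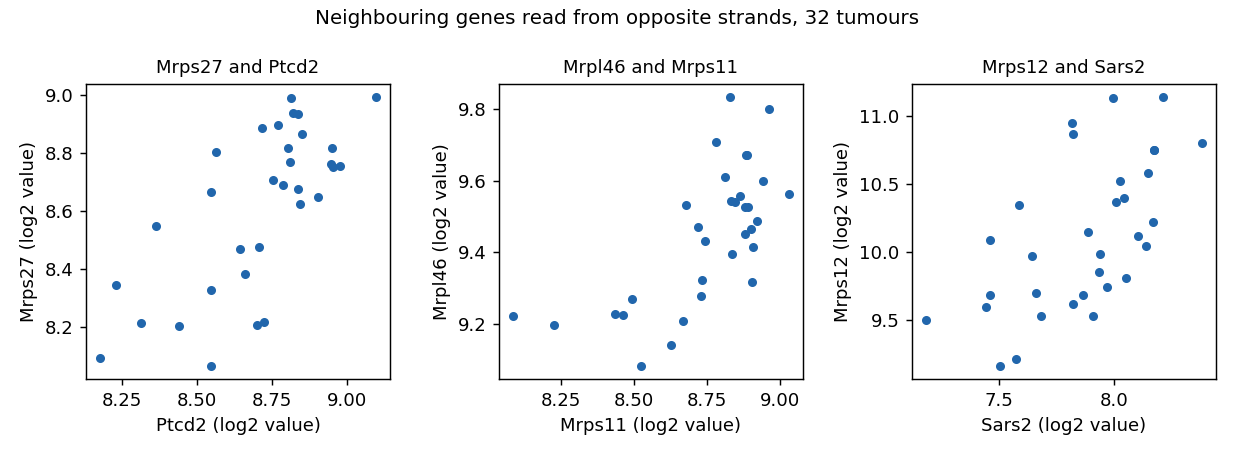
Log2 values of 3 members (vertical axes) against the neighbouring gene read from the opposite strand (horizontal axes), with 1 point for each of the 32 tumours. The r is 0.70 for Mrps27 with Ptcd2, 0.68 for Mrpl46 with Mrps11 and 0.61 for Mrps12 with Sars2.

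For the members that moved together, the promoters were read from RefSeq (GRCm38.p6), which gave a window of 250 bases before and 50 after the start for 67 of the 76 members and for 9116 of the genes tested. The letters searched, on both strands, were CACGTG (the E-box that Myc with Max can bind), GCATGCGC (core of the NRF1 motif), CCGGAAG (ETS), AAGATGGC (YY1) and TGACGTCA (the cyclic AMP response element), none of which contains another. ETS letters were found in 25 of 67 members (37.3%) and in 20.5% of all genes, YY1 letters in 12 (17.9%) and 5.43%, NRF1 letters in 8 (11.9%) and 6.07%, E-box letters in 5 (7.46%) and 11.8%, and the cyclic AMP response element in 2 (2.99%) and 3.55%. The E-box was in 2 of the 15 members with a window that rose with Myc and in 3 of the 52 others. A match is a description of letters, and these shares were not tested.

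The 250 bases before the start are shown for the member with the largest moderated t on Myc (Mrpl3) and for the leading pair on the proliferation score (Mrpl36 and Mrps22), with motif letters in capitals. They lie at chr9:105053018-105053267 (plus strand), chr13:73330759-73331008 (plus strand) and chr9:98601680-98601929 (minus strand). Mrpl3 has 1 ETS match that begins 19 bases before its start, Mrpl36 an E-box at 43 and a YY1 match at 30, and Mrps22 an ETS match at 11. Mrpl36 did not pass on Myc (0.07 ± 0.07, limma adjusted p = 0.526). The part of these letters in any slope was not tested.
Mrpl3 upstream window: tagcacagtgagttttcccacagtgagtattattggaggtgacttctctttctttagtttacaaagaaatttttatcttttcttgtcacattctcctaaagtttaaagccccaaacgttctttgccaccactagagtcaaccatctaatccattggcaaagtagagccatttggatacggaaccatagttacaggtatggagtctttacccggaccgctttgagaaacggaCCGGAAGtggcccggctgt
Mrpl36 upstream window: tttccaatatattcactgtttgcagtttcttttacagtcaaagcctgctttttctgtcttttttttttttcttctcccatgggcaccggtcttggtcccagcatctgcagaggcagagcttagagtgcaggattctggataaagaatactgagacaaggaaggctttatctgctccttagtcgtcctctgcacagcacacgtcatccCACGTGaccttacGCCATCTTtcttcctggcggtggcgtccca
Mrps22 upstream window: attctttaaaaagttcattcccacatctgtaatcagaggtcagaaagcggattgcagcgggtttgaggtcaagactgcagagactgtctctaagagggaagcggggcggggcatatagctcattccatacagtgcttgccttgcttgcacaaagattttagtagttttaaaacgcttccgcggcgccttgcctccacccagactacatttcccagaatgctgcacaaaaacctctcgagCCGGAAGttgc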

How the data were processed

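RNA of 32 Eµ-myc lymphomas was measured on Affymetrix Mouse430_2 arrays, per the labels. The authors deposited 1 log2 value for each probe set and tumour, computed by RMA with affy per the submitters' processing notes, with no version given in the sources used here. RMA equalises the arrays, so a shift shared by most genes would be hidden. All 32 columns were mapped and 0 were left over.

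Of 45101 probe sets, those with 1 gene symbol and a mean of at least 5.78 (the median) were kept, and the one with the highest mean stood for its gene, giving 11228 genes. The axes were the Myc level, mean standardised values of gene lists, the 3' to 5' gap in signal of the Gapdh and Actb controls, and the shift of each gene's chromosome. Myc and the genes of a score were left out of the fit on that axis. For the chromosome shift each gene stayed in the median of its own chromosome. Slopes were fitted with limma 3.58.1 in R 4.3.3 (lmFit, eBayes). The fit was also run on simulated data with independent genes, whereas the genes here are correlated. In those data 94 to 98% of slopes of 1 SD of the gene were recovered, and 4 to 21% of smaller ones. Of the calls 2.48 to 7.69% were false. These shares may not hold for correlated genes. Scores, correlations and figures were made in Python 3.11.15 with scipy 1.17.1, numpy 2.4.6, matplotlib 3.10.9 and pandas 2.3.3.

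The members and lists were chosen with earlier results of these data known. Named members were the 6 largest and 6 smallest SDs, up to 5 rising and 5 falling on each axis, the 5 highest and 5 lowest r to the other members, the Mrps18 genes, and members whose probe sets above the filter had r under 0.3. Outside the module they were up to 3 examples of each list and axis and the 10 genes most like the mean. Others were named to list a small count or a shifted chromosome, after their values were seen. Alternatives were averaging of probe sets, filters at the 75th percentile or absent, scaling by 10 reference genes, covariates, ranks, and leaving out tumours. No batch is given in the sources used here.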

Additional observations from a re-analysis of the deposited data

How the results depend on the processing

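No alternative turned the direction of a count of members called, apart from 2 ties. With the level of Myc 17 members were called, and 2 with the score of other cells as a covariate, 5 without the 2 tumours highest in T cell score, 5 without the 2 farthest on the axis, 8 on ranks, and 9 to 26 with each tumour left out. With the proliferation score there were 46, and 9 without the tumours high in Bpifa2, 27 without the 2 farthest, and 36 to 49 with each left out. With the respiratory chain score there were 61, and 40 with arrays shifted by the reference genes (by -0.13 to 0.08), 21 without the tumours high in Bpifa2, and 52 to 62. With the score of other cells there were 15, and 9 with the filter at the 75th percentile, where no T cell gene was left in the score, 7 without the 2 highest in T cell score, 2 without the 2 farthest, 7 on ranks, and 12 to 20. With the 3' minus 5' difference there were 4, and 2 with the reference shift, 0 without the tumours high in Bpifa2, 9 without the 2 highest in T cell score, 0 without the 2 farthest, 0 on ranks, and 0 to 8. With the own chromosome shift there were 20, and 8 without the 2 farthest (4 rising, 4 falling), 5 on ranks, and 16 to 26. With the precursor B cell score there were 0, and 6 without the 2 highest in T cell score, and 0 to 3. The counts in this paragraph stand without the share of all genes called in each setting. They do not show whether members changed more than other genes. The cause of these changes was not tested.

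The median member SD was 0.23 to 0.25 and the median pairwise r 0.39 to 0.43 with each tumour left out. For 29 named slopes, picked for the largest moderated t among those called, 1125 of 1209 alternative values kept sign and side of the threshold. Another 84 lost the call and 0 changed sign. Most of the 1209 leave out a single tumour. Of the 281 from other alternatives, 38 lost the call. No paired analysis was possible because the labels give 1 group. The number of arrays, and signal near background for dim probe sets, limits precision.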
